A study of Caenorhabditis elegans with 9 samples.

Results

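The regions described here are the sites on chromosome II of the nematode Caenorhabditis elegans at which PES-1, a DNA-binding protein of the forkhead family, was called as bound in larvae. They were chosen by position alone, as every peak of the authors' combined list that lies on chromosome II, 1135 of 7213 peaks (15.7%). Replicate support came from the 547 peaks on the same chromosome in the replicate 1 list (15.7% of 3488) and the 774 in the replicate 2 list (18.5% of 4185). The worms were L4 hermaphrodites, the last larval stage, of strain OP87, which carries unc-119(ed3) III and the transgene wgIs87, and all 9 libraries come from it. The transgene, introduced by bombardment, holds unc-119(+) and a pes-1 gene fused to TY1, EGFP and 3xFLAG. Whole animals were grown at 20 °C and crosslinked with 2% formaldehyde, so a peak pools all the cells in which the fusion protein is made. Replicate 1 has 2 libraries precipitated with anti-GFP and 4 of input DNA, and replicate 2 has 3 precipitated libraries. The strain is described by the submitters as showing the proper pes-1 expression pattern, and ChIP of worms without the transgene was not analysed here.

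Forkhead proteins bind DNA through a winged-helix domain and control cell fate, metabolism and ageing in animals. PES-1 is best known from the embryo, where it acts together with the related forkhead protein FKH-2. A C. elegans autosome has a centre rich in conserved and highly expressed genes, where crossing over is rare, and arms on either side with more repeats, more young gene families and more crossing over. Many worm transcription factors bind near gene starts, and some stretches of the genome are occupied by a large number of unrelated factors.

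Each peak has a start, an end and a q-value, the false discovery estimate of the peak caller, and the text uses the −log10 of that q-value as its score, so that a larger score is a more significant peak. The q-values are the authors'. Positions are on WormBase build WS190. No annotation or genome of that build was used, so regions are named by position, without genes or sequence. Each replicate is a single list with no read counts. The depth is therefore unknown, no region could be tested between replicates, and the comparisons below are descriptions.

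Bound regions were spread from one end of chromosome II to the other. The first combined peak began at 18836 and the last ended at 15266729, the last position of any list. Density was 74.3 peaks per Mb for the combined peaks, 35.8 for replicate 1 and 50.7 for replicate 2. Of the 6 chromosomes, I and III were denser in the combined list, at 101 and 108 per Mb, and IV, V and X were sparser, at 59.2, 53.9 and 50.8. The combined peaks covered 483 kb, or 3.16% of the chromosome. The combined peaks had a median width of 339 bp (quartiles 222.5 and 502.5 bp), replicate 1 peaks 371 bp and replicate 2 peaks 295 bp. Very short calls were present, with 67 combined, 38 replicate 2 and 1 replicate 1 peak under 50 bp. No pair of neighbouring peaks lay closer than 200 bp in the combined list.

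The lists differed more in significance than in coverage. Replicate 1 had fewer peaks than replicate 2 but covered almost as much sequence, 265 kb against 269 kb. In replicate 1, 83 of the 547 peaks had a q-value under 1e-10 (15.2%), in replicate 2 it was 53 of 774 (6.85%), and in the combined list 206 of 1135 (18.1%). At the weak end, 182 replicate 1 peaks (33.3%) and 366 replicate 2 peaks (47.3%) had a q-value over 0.001, and most of the surplus of replicate 2 was of such weak calls. On the other chromosomes the share over 0.001 ran from 29.3% on I to 35.1% on V in replicate 1. In replicate 2 it ran from 42% on III to 50.8% on X. Replicate 2 held 1.41 peaks for each replicate 1 peak. That ratio was 1.54 on X, 1.33 on V, 1.16 on III, 1.12 on IV and 0.825 on I.

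The arms held more peaks than the centre, and the right arm most of all. With the chromosome divided into 3 equal parts of 5.09 Mb, the left arm held 382 combined peaks (33.7%, exact binomial 95% interval 30.9 to 36.5%), the centre 315 (27.8%, 25.2 to 30.5%) and the right arm 438 (38.6%, 35.7 to 41.5%). Even placement would give 33.3% to each. The parts were set by length alone, without data on crossing over or genes, and may not match the arms and centre described above. These intervals cover counting error only and take peaks as independent, although peaks cluster. In replicate 1 the parts held 163, 161 and 223 peaks, so that the left arm and the centre were nearly equal, at 29.8% and 29.4%. In replicate 2 they held 251, 222 and 301, or 32.4%, 28.7% and 38.9%. The right arm was therefore the fullest part in all 3 lists, while the excess of the left arm over the centre was present in the combined and replicate 2 lists and amounted to 2 peaks in replicate 1. With the other chromosomes divided in the same way, the combined centre share ran from 26.1% on X to 31.1% on V. The centre held the fewest combined peaks on each of them but IV (28.2%, against 27.0% on the right). The right part was also the fullest on V (37.3%) and X (38.9%), and the left part on I, III and IV.

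**Figure D1:**
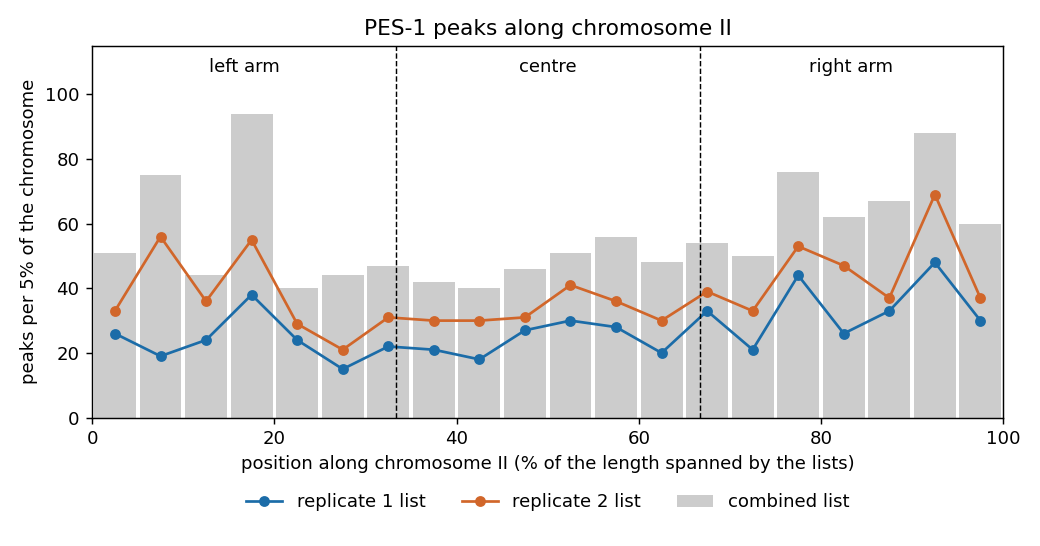
Peaks of the 3 lists along chromosome II, in 20 bins that each hold 5% of its length; bars show the combined list, points the replicate lists, and dashed lines divide the 3 equal parts. The fullest bins hold 94 combined peaks in the left arm and 88 in the right arm, and the second bin holds 19 replicate 1 peaks and 56 replicate 2 peaks.

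The arms were not uniform. The bin from 2290010 to 3053346, 5% of the chromosome, held 94 combined peaks, against 40 in the next bin. The other full bin of the left arm, from 763337 to 1526673, held 75. In the right arm the bin from 13740057 to 14503393 held 88 combined, 48 replicate 1 and 69 replicate 2 peaks, the most of any bin in both replicates. The left arm had the narrowest combined regions, with a median of 315.5 bp against 359 bp in the centre and 344.5 bp in the right arm. In replicate 2 the medians were 265, 323 and 305 bp in that order. Replicate 1 went the other way, with 376, 373 and 361 bp, so that its left arm was the widest. By covered length of the combined peaks the left arm held 28.4%, the centre 31.0% and the right arm 40.6%, so that the centre exceeded the left arm on this measure. Of the 56 combined peaks of 1 kb or more, 9 lay in the left arm, 24 in the centre and 23 in the right arm, and those of 2 kb or more numbered 0, 5 and 8.

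The strongest regions lay mostly in the right arm. It held 31 of the 50 combined peaks with the smallest q-values, against 11 in the left arm and 8 in the centre, and 30 of the best 50 in replicate 1 and 27 in replicate 2. Among the best 100 combined peaks the right arm held 50, the left arm 27 and the centre 23. The median score of all combined peaks differed less, at 4.04 in the left arm, 3.90 in the centre and 4.39 in the right arm. The single strongest region of the chromosome was nevertheless in the centre, close to its right edge.

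That region, from 10174045 to 10174763 and 719 bp wide, scored 118 combined, 96.8 in replicate 1 and 72.0 in replicate 2. It ranked first on chromosome II in every list, and the next best score was 57.1 combined, 39.3 in replicate 1 and 35.5 in replicate 2. The region stood well above its neighbours in rank order in both replicates.

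The next 3 regions were at most 1062 bp wide, and the first pair of them scored alike in both replicates. The 457 bp region from 12919034 to 12919490 scored 57.1 combined, 35.0 in replicate 1 and 33.3 in replicate 2, with rank 3 in each replicate. The 377 bp region from 12778303 to 12778679 scored 55.2, 28.9 and 29.3. The region from 15025003 to 15026064 scored 54.0, 23.5 and 33.0, higher in replicate 2, and replicate 1 called it as 2 peaks. All of them are in the right arm.

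The region at rank 5 differed strongly between the replicates. It ran from 10546573 to 10552934, was the widest of the chromosome at 6362 bp, and scored 53.7 in the combined list. Replicate 1 called it as 1 peak of 5760 bp with a score of 39.3, its second best on the chromosome. Replicate 2 called 3 separate peaks within it, the best with a score of 6.48, rank 138. A second wide region of 4362 bp, from 10541885 to 10546246, ended 326 bp before it, so that the pair spanned 11050 bp; in this span replicate 1 peaks covered 7571 bp and replicate 2 peaks 4735 bp. The second region scored 12.3 combined, 3.51 in replicate 1 and 3.42 in replicate 2. Just to the right, the narrow region from 10563316 to 10563773 went the other way, with a combined score of 50.7, a replicate 1 score of 28.0 and a replicate 2 score of 35.5, the second best of replicate 2.

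**Figure D2:**
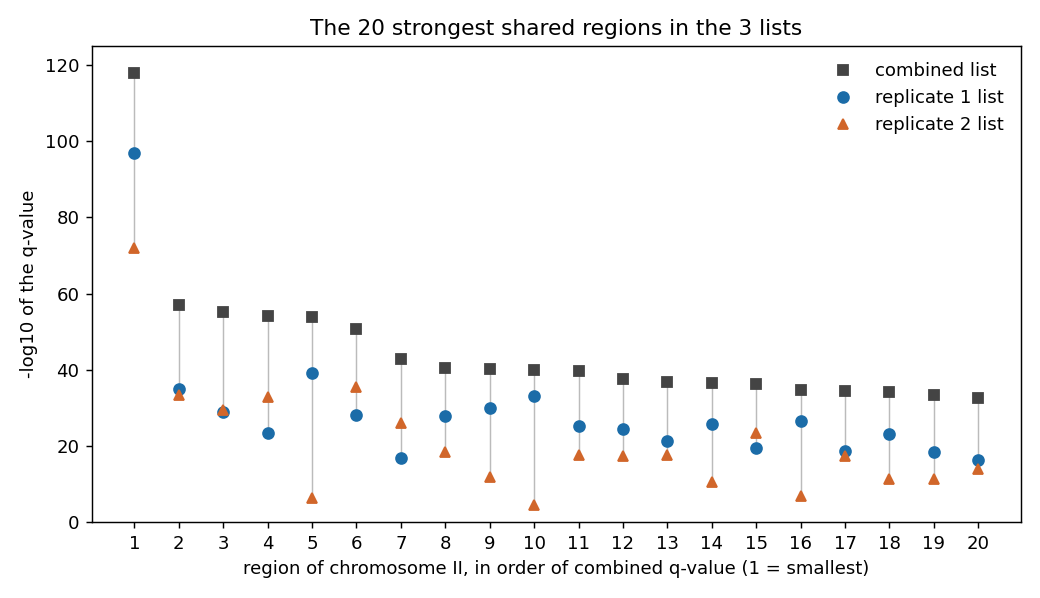
The −log10 q-value of the 20 combined regions with the smallest q-values among those found in both replicates, in order of combined rank, with the best overlapping peak of each replicate. The combined value is the highest at each of the 20, and replicate 2 falls to 6.48, 4.43 and 6.86 at ranks 5, 10 and 16.

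Of the 20 strongest regions found in both replicates, 13 lay in the right arm, 4 in the left arm and 3 in the centre, and their widths ran from 342 to 6362 bp with a median of 743 bp. Replicate 1 had the higher score at 15 of them. Their lowest rank on the chromosome was 34 in replicate 1 and 239 in replicate 2. Of the 20, 9 stood among the best 20 of both replicate lists. In the left arm they were the regions from 2987058 to 2988251 (scores 42.9 combined, 16.8 in replicate 1 and 26.0 in replicate 2), from 254962 to 255745 (39.7, 25.3 and 17.7), from 1320456 to 1320840 (37.7, 24.6 and 17.3) and from 2455553 to 2456683 (32.5, 16.3 and 13.9). Besides the top region, the centre held those from 8561169 to 8561576 (40.4, 28.0 and 18.5) and from 9059892 to 9062703 (33.5, 18.4 and 11.2). The right arm also held the 3406 bp region from 14404847 to 14408252, which scored 39.9 combined, 33.2 in replicate 1 and 4.43 in replicate 2, where the best overlapping peak was 941 bp wide.

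The rest of the 20 were right-arm regions under 1 kb wide. From 13976073 to 13976469 the scores were 40.2 combined, 30.0 in replicate 1 and 11.8 in replicate 2, and from 11967179 to 11967945 they were 36.9, 21.4 and 17.6. From 14250948 to 14251946 they were 36.5, 25.8 and 10.7, and from 14561578 to 14561919 they were 36.3, 19.6 and 23.3. Of these 4, the last was the one with the higher score in replicate 2. From 14039966 to 14040869 the scores were 34.7, 26.7 and 6.86, from 11874620 to 11875066 they were 34.5, 18.6 and 17.3, and from 14059681 to 14060078 they were 34.1, 23.1 and 11.5. The replicates were nearly level at 11874620 and far apart at 14039966.

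Replicate support was high for strong regions and low for weak ones. By an overlap of 1 bp or more, 402 of the 1135 combined peaks were matched in replicates 1 and 2 alike (35.4%, exact binomial 95% interval 32.6 to 38.3%), against a background of 32.7% over all chromosomes. Another 138 (12.2%) overlapped replicate 1 alone, against 14.6% over all chromosomes, 280 (24.7%) replicate 2 alone, against 19.0%, and 315 (27.8%) neither, against 33.7%. Single-chromosome shares in both replicates ran from 24.0% on I to 38.0% on III, so the value for II lies within the range of the others. The share in neither was 50.5% on I, 27.0% on III, 27.5% on IV, 31.8% on V and 33.2% on X. The share in replicate 2 alone ran from 8.84% on I to 24.4% on X among the other chromosomes. Which libraries went into the combined list is not given in the sources used here, and its reads may also stand in the replicate lists. The combined score was above both replicate scores at 401 of the 402 shared regions. Its median difference from the sum of the replicate scores was 0.04. Combined rank and replicate support are therefore not independent.

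With the combined peaks put in order of q-value and divided into 10 groups of 113 or 114, all 114 of the best group were found in both replicates. The share was then 96.5%, 72.8%, 52.6%, 22.8%, 6.19% and 1.77%, and it was 0 of 113 in each of the last 3 groups. Of the 206 combined peaks with a q-value under 1e-10, 204 were in both replicates. Peaks in both were 457.5 bp wide at the median, with a median score of 10.2; those in replicate 1 alone 361 bp and 4.32; those in replicate 2 alone 277 bp and 3.59; and those in neither 200 bp and 2.49. Of the 67 combined peaks under 50 bp, 54 were in neither replicate and 0 in both. Wide peaks meet the overlap rule more easily, so width and support are not independent.

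**Figure D3:**
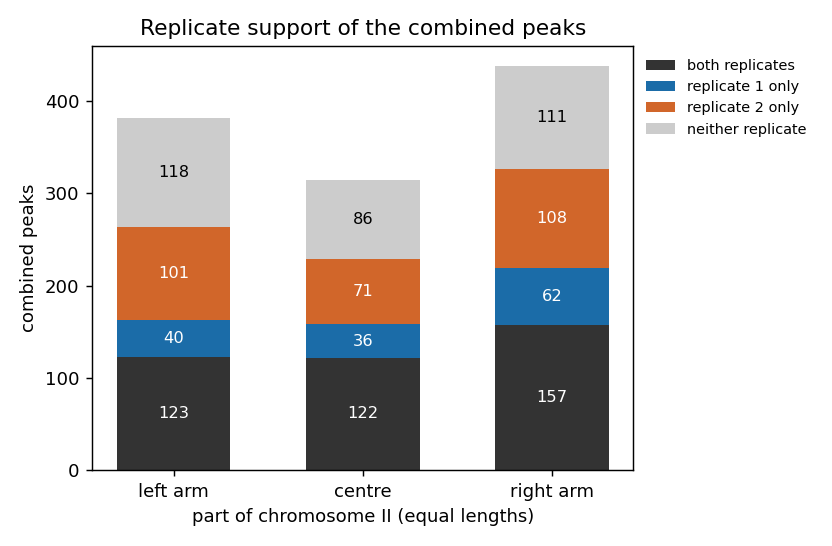
Combined peaks of chromosome II by replicate support in 3 parts of equal length; the number in each segment is its count of peaks. The right arm has the most peaks in both replicates, 157, against 123 in the left arm and 122 in the centre, and the left arm has the most in neither, 118.

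Support from both replicates was highest in the centre and lowest in the left arm. The share of combined peaks in both replicates was 32.2% in the left arm (27.5 to 37.1%), 38.7% in the centre (33.3 to 44.4%) and 35.8% in the right arm (31.3 to 40.5%), with overlapping intervals. The share in neither was 30.9%, 27.3% and 25.3% in that order. The intervals take peaks as independent, and their overlap does not show that the shares are equal. Because the centre had fewer peaks in all but a larger share of them in both lists, the number found in both was almost the same in the left arm and the centre, 123 and 122.

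Compared directly, 402 of the 547 replicate 1 peaks overlapped a replicate 2 peak (73.5%, 69.6 to 77.1%), against 67.7% over all chromosomes. In the other direction 409 of 774 replicate 2 peaks did (52.8%, 49.3 to 56.4%), against 57.3%. On the other chromosomes the first share ran from 58.5% on I to 73.1% on X, and the second from 48.4% on X to 71.3% on I. Replicate 2 had more peaks on II than replicate 1, so nearly equal numbers of overlapping peaks gave a lower share in the second direction. With both lists reduced to their best 547 peaks, which dropped the weakest replicate 2 peaks, the shares were 63.8% and 64.0%. Shares of 98.0% and 97.0% of the best 100 peaks of replicates 1 and 2 were found in the other list. Of the best 50 of each, 31 overlapped one of the best 50 of the other. Shared peaks had a median score of 5.28 in replicate 1 and 4.62 in replicate 2, and peaks without a counterpart 2.86 and 2.63. Every shared replicate peak was in the combined list, as were 141 of the 145 unshared peaks of replicate 1 and 284 of the 365 of replicate 2.

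Scores of the same region rose together in the replicates. In 400 cases a replicate 1 and a replicate 2 peak were mutual best overlaps, and over these pairs Spearman's rho was 0.59 and Pearson's r 0.78 across regions; without the 2 pairs farthest from the median replicate 1 score, r was 0.69. The pairs share the libraries of their list and are not independent. The replicate 1 score was higher in 226 of the 400 pairs (56.5%), with a median difference of 0.33 (quartiles −1.23 and 2.57). By part it was higher in 56 of 120 pairs in the left arm, 73 of 122 in the centre and 97 of 158 in the right arm, with median differences of −0.13, 0.30 and 0.82.

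**Figure D4:**
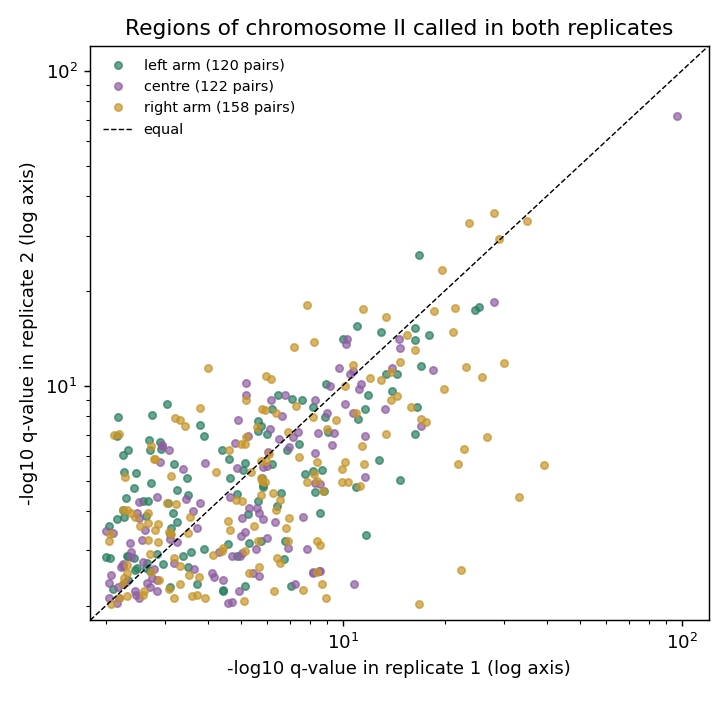
The −log10 q-value in replicate 1 and replicate 2 of the 400 regions that are mutual best overlaps, on log axes, coloured by part of the chromosome; the dashed line marks equal values. The points at 39.3 and 5.59 and at 33.2 and 4.43 are in the right arm, and the point at 96.8 and 72.0 is the strongest region.

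The 2 largest differences between replicates were at wide regions of the right arm. After the 6362 bp region, where paired scores were 39.3 and 5.59, and the 3406 bp region, where they were 33.2 and 4.43, the next largest excess of replicate 1 was at the top region of the chromosome itself (96.8 and 72.0). The region from 14039966 (26.7 and 6.86) and that from 11633998 to 11636153, 2156 bp wide (22.3 and 2.61), followed. A further wide region, 4694 bp from 11616267 to 11620960, had best scores of 21.9 in replicate 1 and 5.62 in replicate 2, each calling 2 peaks in it. Excesses of replicate 2 were smaller. The largest were at 13834286 to 13835198 (7.84 in replicate 1 and 18.1 in replicate 2), 15025003 to 15026064 (23.5 and 33.0), 2987058 to 2988251 (16.8 and 26.0), 10563316 to 10563773 (28.0 and 35.5) and 12679572 to 12679969 (4.02 and 11.4). All of these but the third are in the right arm.

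Over all widths, replicate 1 scored higher at 33 of the 44 shared combined regions of 1 kb or more, at 63 of the 134 from 500 bp to under 1 kb and at 132 of the 224 under 500 bp. The median difference was 2.44, −0.30 and 0.42 in that order. These bands were set after the values were seen and the differences between them were not tested. Regions of 1 kb or more made up 4.93% of combined peaks and 19.8% of the covered length, and 44 of the 56 were found in both replicates. The widest shared region of the centre, 3056 bp from 8742968 to 8746023, scored 11.5 combined, 7.85 in replicate 1 and 3.78 in replicate 2.

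The strongest regions lacking support from a replicate had combined ranks from 152 to 229 of 1135. The first was the 403 bp region from 15043788 to 15044190, rank 152 in the combined list, with a combined score of 12.1 and a replicate 1 score of 10.4. Its neighbour from 15042805 to 15043111 was also in replicate 1 alone, at 9.22 combined and 8.68 in replicate 1, and so was that from 12059781 to 12060090, at 9.37 and 7.39. Replicate 2 alone held the regions from 1131202 to 1131837, at 10.3 combined and 8.08 in replicate 2, and from 11166763 to 11167436, at 9.71 and 11.1. In the last of these, the combined score was below that of the replicate in which it was found.

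The best unshared peaks of each replicate list included further regions. In replicate 1 the remaining of its best 5 without a replicate 2 peak ran from 18829 to 19255, at the left end of the chromosome (7.51), and from 3055490 to 3055971 (7.12). In replicate 2 the remaining of its best 5 ran from 11223915 to 11224465 (9.55), from 5781944 to 5782820 (7.28) and from 1203018 to 1203834 (7.21). All of these were in the combined list. The best combined peaks in neither replicate had scores near the list's median of 4.10. They were led by 99 bp from 14936377 to 14936475 with a score of 4.40, 91 bp from 14762638 to 14762728 with 4.31 and 382 bp from 3059394 to 3059775 with 4.18.

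Peaks were crowded in a few stretches, and the 3 windows with the most combined peaks were in the left arm. Counted in 153 windows of 100 kb, of which the last is shorter at 66.7 kb, the combined list had a median of 6 peaks, replicate 1 of 3 and replicate 2 of 4. The variance of the counts was 3.08, 2.15 and 2.71 times their mean. The fullest combined window ran from 1300001 to 1400000 and held 26 combined peaks, 9 of replicate 1 and 24 of replicate 2. The next 3 were also in the left arm: 2400001 to 2500000 held 23 combined, 11 replicate 1 and 13 replicate 2 peaks, 2200001 to 2300000 held 22, 13 and 20, and 2800001 to 2900000 held 21, 7 and 12. The fullest of the right arm, 14000001 to 14100000, held as many combined peaks as the last of these, with 21, 10 and 17. The window from 2900001 to 3000000 held 18, 10 and 8, that from 1200001 to 1300000 held 16, 5 and 9, and that from 11700001 to 11800000 held 16, 7 and 12. The short last window, 15200001 to 15266729 at the right end, also held 16 combined peaks, with 9 and 9 of the replicates. Per length this was 24.0 combined peaks per 100 kb. That window was cut at the last peak end, not at the chromosome end, so this density is an upper value.

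Which window was fullest depended on what was counted. Among peaks found in both replicates it was 2200001 to 2300000, with 12, and replicate 1 by itself was also fullest there. With windows shifted by 50 kb it was 2150001 to 2250000, with 32 combined peaks, 18 of replicate 1 and 25 of replicate 2. This stretch held the longest chains of close peaks on the chromosome, 7 combined peaks less than 1 kb apart from 2186515 to 2191684 and 6 from 2245726 to 2248920. In all, 330 of the combined peaks (29.1%) stood in 138 chains with gaps under 1 kb, of which 102 were pairs. Of all gaps between neighbouring combined peaks on II, 16.9% were under 1 kb. On the other chromosomes this share ran from 9.68% on X to 21.5% on III, so the value for II lies within their range.

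Windows with 10 or more combined peaks numbered 40 of 153 and held 552 peaks (48.6%). By part, 14 were in the left arm, 7 in the centre and 19 in the right arm. Most stood alone, and 5 runs covered adjacent windows. The longest runs were 2700001 to 3100000, with 61 combined, 27 replicate 1 and 33 replicate 2 peaks, and 11700001 to 12100000, with 50, 28 and 31. In the crowded windows 33.2% of combined peaks were in both replicates, against 37.6% in the others, and the median scores were 4.09 and 4.19. Crowded windows therefore did not hold peaks of higher median score.

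Empty stretches lay next to the crowded ones in the left arm. The only window with no combined peak, 1900001 to 2000000, had no replicate peak either. The widest gap between combined peaks ran from 1861681 to 2054683 (193 kb) and held 1 replicate 2 peak, and the next ran from 905614 to 1066949 (161 kb) with none of either replicate. Replicate 1 had no peak in 16 windows and replicate 2 in 3.

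**Figure D5:**
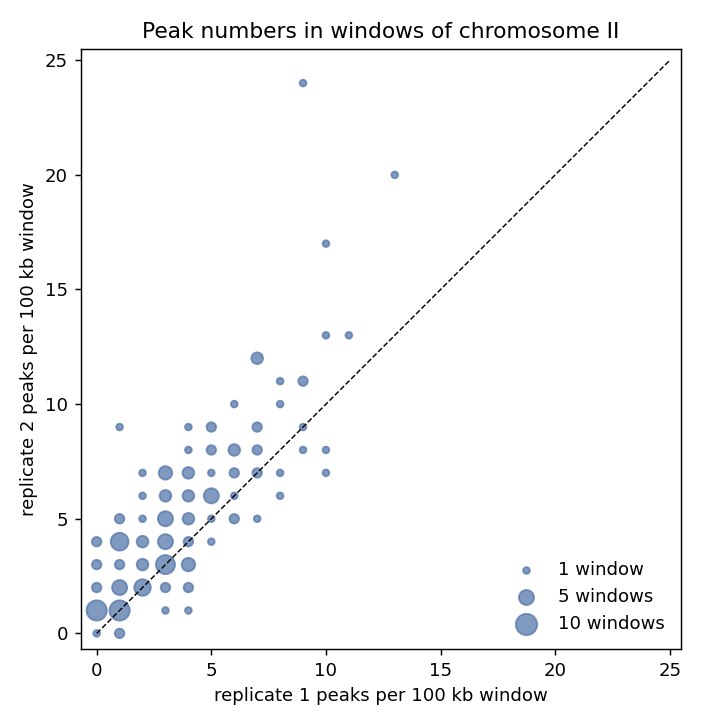
Replicate 1 and replicate 2 peaks in each of 153 windows of 100 kb on chromosome II; the area of a point gives the number of windows and the dashed line marks equal numbers. The window at 9 and 24 is 1300001 to 1400000, and that at 1 and 9 is 1100001 to 1200000.

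The replicates ranked windows much alike, but replicate 2 had more peaks in most of them, and a few differed widely. Across the 153 windows, peak numbers had a Spearman's rho of 0.79 and a Pearson's r of 0.80, as a description of windows that share libraries. Replicate 2 had more peaks in 101 windows, replicate 1 in 21, and they were equal in 31. The largest differences were 24 against 9 in 1300001 to 1400000, 9 against 1 in 1100001 to 1200000, 20 against 13 in 2200001 to 2300000, and 17 against 10 in 14000001 to 14100000, all with more in replicate 2. A difference of 5 followed in 5 windows, again all with more in replicate 2. They were 2800001 to 2900000 (12 against 7) in the left arm, 8900001 to 9000000 (7 against 2) in the centre, and 11700001 to 11800000 (12 against 7), 12300001 to 12400000 (9 against 4) and 12600001 to 12700000 (12 against 7) in the right arm. Where replicate 1 had more, the excess reached 3 peaks, in 10000001 to 10100000 and 12000001 to 12100000.

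The run of windows from 1100001 to 1400000 was where the lists parted most. It held 57 combined peaks, 15 of replicate 1 and 42 of replicate 2, and 12 of the 57 (21.1%) were in both, 28 in replicate 2 alone and 3 in replicate 1 alone. In the window from 1300001, all 9 replicate 1 peaks had a replicate 2 counterpart, while 15 of the 24 replicate 2 peaks had none. Those 15 had scores from 2.13 to 3.48 and a median width of 194 bp, so that the surplus was of weak, narrow calls. The 9 replicate 1 peaks of this window were mostly weak as well, with a median score of 2.42 and a highest of 24.6. In the window from 1100001, the replicate 1 peak scored 11.6, and the 8 unshared replicate 2 peaks scored from 2.21 to 8.08.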

How the data were processed

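Chromatin of L4 worms was sequenced after precipitation with anti-GFP (5 libraries) or as input (4 libraries, replicate 1). The authors deposited 3 peak lists, with a q-value per peak, with WormBase WS190 as the build per the file headers and PeakSeq as the caller per the method column. The sources used here do not give the aligner, software version, threshold or controls, or how the combined list was made. All deposited q-values are under 0.01, so absence from a list does not show absence of binding. Lists were tied to replicates by name, and whether all libraries of a replicate were called together is not stated. Each replicate has a single list, so no spread between libraries can be given and depth is unknown.

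Python 3.11.15, pandas 2.3.3, numpy 2.4.6, scipy 1.17.1 and matplotlib 3.10.9 were used. Sharing meant an overlap of at least 1 bp. Peaks were assigned to parts and 100 kb windows by midpoint, and the chromosome length was the last peak end, 15266729. Binomial intervals are exact (Clopper-Pearson, 95%). Overlap routines were tested on simulated data. The named regions were the 20 strongest in both replicates, the 5 strongest in each class of unshared peak, the 5 widest, the 5 pairs differing most in each direction, the 8 fullest windows and the 5 windows differing most (ties included); the strongest peaks in neither replicate were added after their values were seen. The members, rules and alternatives were chosen with earlier results of these data known.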

Additional observations from a re-analysis of the deposited data

How the results depend on the processing

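Of the 37 alternative values computed, 21 stayed within the binomial interval of the main share, within 0.05 of rho or within a factor of 1.5 of the count, and 16 moved further. Asking for an overlap of 50% of both peaks lowered the combined peaks in both replicates from 35.4% to 29.3%, replicate 1 peaks in replicate 2 from 73.5% to 63.8% and replicate 2 peaks in replicate 1 from 52.8% to 45.1%. Lists reduced to equal length, chosen after seeing the data, gave 63.8% and 64.0%. This dropped the replicate 2 peaks with the largest q-values, so number and strength changed together. Needing 1 replicate gave 47.6% without replicate 2 and 60.1% without replicate 1, by construction. The centre share of 27.8% was 31.0% by covered length and 42.1% for the middle 50% of the chromosome, where even placement gives 50%. The left arm share of 33.7% was 28.4% by covered length, 29.8% in replicate 1 and 30.6% among peaks in both replicates. For the first 25% of the chromosome the share was 26.8%, where even placement gives 25%. Without the windows from 1100001 to 1400000 the left arm share was 30.1%, a setting chosen after seeing the data. That value is lower by construction, as those windows were picked as crowded. By covered length the left arm fell below the centre. The fullest window held 12 peaks in both replicates and 15 among the 50% of peaks with the smaller q, in place of 26, since fewer peaks were counted. The causes of the other moves were not tested. No paired analysis was possible because each replicate is 1 list and no result comes from a test. The lists give no read counts, so depth limits what a missing peak means.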
